A study of Mus musculus with 6 samples.

Results

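The IL-2 response of regulatory T cells (Treg cells) was followed through 10 genes: the receptor chains Il2ra, Il2rb and Il2rg, the kinases Jak1 and Jak3, the transcription factors Stat5a and Stat5b, and the inhibitors Socs1, Socs2 and Cish. They were taken by gene symbol, with the transcript of highest mean level for each, and all 10 of 10 were found among the 24453 symbols of the table. RNA-seq libraries were made from CD4+Foxp3+ Treg cells of healthy female C57BL/6 mice, isolated by cell sorting, in 2 groups of 3. The miR-27 Tg group carried a transgene that raises miR-27a in Treg cells, in a setting the series title calls Foxp3cre het. The control group, called WT here, has the genotype label WT Tg, and the labels do not say what that wording denotes or whether the controls carried Cre. Foxp3 lies on the X chromosome, of which each female cell silences a copy, and the sources used here do not say whether the sort selected cells with active Cre. No age is given. The labels do not tie the 3 libraries of a group to different animals, so the p-values below reflect spread between libraries that may be purely technical.

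Interleukin-2 (IL-2) binds a receptor of 3 chains: CD25 (Il2ra) gives high affinity, CD122 (Il2rb) and the common gamma chain (Il2rg) carry the signal. JAK1 sits on CD122 and JAK3 on the gamma chain, and they phosphorylate STAT5A and STAT5B, which enter the nucleus and induce, among others, Il2ra itself and the inhibitors Cish, Socs1 and Socs2. Treg cells make almost no IL-2, depend on it from other cells, and need this pathway to keep Foxp3 on. A microRNA such as miR-27 lowers messenger RNAs that hold a match to its seed, bases 2 to 8.

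The mature miR-27 sequences are shown because the overexpressed microRNA defines the groups. Capitals mark the seed, which miR-27a and its relative miR-27b share (RefSeq, GRCm38.p6, chr8:84208727-84208747 and chr13:63300760-63300780, both plus strand).
mmu-miR-27a-3p: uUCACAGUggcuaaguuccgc
mmu-miR-27b-3p: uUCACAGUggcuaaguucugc

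The match to that seed, ACTGTGA, was searched on the transcript strand in the longest GENCODE M21 3′ UTR of each gene. Of the 10 genes 1 held it, against 16.7% of 11809 tested genes with an annotated 3′ UTR. The median 3′ UTR length was 1583 bases for the 10 genes and 1108 bases for those 11809. The match lay in Il2ra, at base 3212 of a 3′ UTR of 3411 bases, and was followed by an A. It is shown with its neighbouring bases, the match in capitals (GRCm38, chr2:11692982-11693011, plus strand).
Il2ra site: aaggcccaacccACTGTGAaaggcaccacc
A match is a description of the sequence and does not show that the site is used. The other 9 genes held no ACTGTGA in the 3′ UTR searched, which says nothing about other kinds of site.

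STAT5 binds the palindrome TTCNNNGAA, which reads the same on both strands. RefSeq promoter windows of 300 bases (250 before and 50 after a gene's start) were found for 8 of the 10 genes, 10 windows in all, and not for Il2rb and Socs2. The motif was in 1 of them, that of Cish, against 8.30% of all 32851 windows. The Cish window held it 2 times, as 0.457% of all windows did at least that often. The window is shown because Cish had the smallest p of the 10 genes in the comparison below, with the motifs in capitals (GRCm38.p6, chr9:107296409-107296708, plus strand).
Cish window: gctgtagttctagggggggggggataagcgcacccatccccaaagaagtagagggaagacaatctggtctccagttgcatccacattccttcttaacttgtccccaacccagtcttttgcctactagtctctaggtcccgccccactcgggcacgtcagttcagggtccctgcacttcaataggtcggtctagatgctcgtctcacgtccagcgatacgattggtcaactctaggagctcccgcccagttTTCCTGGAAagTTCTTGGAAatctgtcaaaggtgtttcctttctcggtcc
The motifs TTCCTGGAA and TTCTTGGAA lie at chr9:107296659-107296667 and chr9:107296670-107296678. They begin at bases 251 and 262 of the window, so at and after the RefSeq start that defines it, and end before the start of the deposited Cish transcript. A match in such a window is not evidence of binding, and its absence from the windows of the other 7 genes says nothing of more distant elements.

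Levels are RPKM as deposited, here per kilobase of transcript and per 10000000 counted reads. The libraries held 34400000 to 38100000 counted reads in miR-27 Tg and 37700000 to 42100000 in WT. The 10 genes had 934 to 30007 reads per library, so counting error alone was at most 3.27% of a value. The hairpin of miR-27a, Mir27a, had 8919, 7448 and 7898 RPKM in miR-27 Tg and 24.9, 38.4 and 24.7 RPKM in WT (log2 fold change 8.09, adjusted p = 6.05e-07 by limma), so all 6 libraries matched their labels. Markers of the sorted cells were abundant, with Cd4 at 2207 ± 88.0 RPKM in miR-27 Tg and 1946 ± 85.4 in WT and Foxp3 at 836 ± 104 RPKM in miR-27 Tg and 764 ± 89.9 in WT (SD, n = 3 each). The summed level of 7 markers of the sorted cells, the general T cell genes Cd3e, Cd3g and Cd4 among them, was 10523 to 11749 RPKM in miR-27 Tg and 12417 to 13216 in WT. Without Ctla4 the sums overlapped, at 8416, 8816 and 9174 RPKM in miR-27 Tg and 8927, 9802 and 9292 RPKM in WT. Ctla4, an inhibitory receptor of Treg cells, had 2335 ± 234 RPKM in miR-27 Tg and 3436 ± 324 in WT (adjusted p = 0.0868 by limma), and Ikzf2, the factor Helios, 404 ± 51.8 RPKM in miR-27 Tg and 585 ± 153 in WT (adjusted p = 0.290). The summed level of 16 myeloid markers was 592 to 2097 RPKM in miR-27 Tg and 445 to 848 in WT. Of the 15 myeloid markers tested, 14 had a log2 fold change above 0, as 6413 of all 13621 genes tested did. With a higher level in miR-27 Tg, 10 reached an unadjusted p under 0.05 (4.59% of all genes tested did). Every miR-27 Tg library lay above every WT library for 5 (6.84% of all genes tested). The integrin Itgam rose (16.4 ± 0.583 RPKM in miR-27 Tg, 4.41 ± 0.487 in WT, adjusted p = 0.0118 by limma). Itgam did not pass without a filter on low values or without miR-27 Tg replicate 3, WT replicate 1 or WT replicate 3 (adjusted p 0.00321 to 0.0674 over all alternatives). Cd14 was under the filter, and Lyz2, a lysozyme of macrophages and neutrophils, had 367 ± 156 RPKM in miR-27 Tg and 167 ± 97.7 in WT. The summed level of 8 B cell markers was 97.6 to 146 RPKM in miR-27 Tg and 128 to 147 in WT. For 6 CD8 T and NK cell markers it was 119 to 244 RPKM in miR-27 Tg and 82.0 to 131 in WT. For 4 erythroid markers it was 1.54 to 4.35 RPKM in miR-27 Tg and 2.87 to 4.72 in WT. Of the 5 CD8 T and NK cell markers tested, 2 reached an unadjusted p under 0.05 with a higher level in miR-27 Tg. With a lower level 1 did, against 4.59% and 8.43% of all genes tested. Other leukocytes also express genes such as Il2rg, Jak1 and Socs1, and the part of such RNA in the values below was not tested. In bulk samples, fewer cells of a type and less RNA per cell cannot be told apart.

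The comparison asked whether the IL-2 receptor and its feedback genes differ in level between Treg cells with the transgene and those of the control group. After Benjamini-Hochberg adjustment of the limma p-values over the 13621 genes tested, none of the 10 genes passed 0.05: 0 rose and 0 fell, against 0.374% and 0.653% of all genes tested. The largest differences were among the inhibitors, with Socs1 and Socs2 higher and Cish lower in miR-27 Tg, with fold changes of 1.31, 1.29 and 0.802 from the log2(RPKM + 1) scale, but none of these passed the adjusted test. At an unadjusted p under 0.05, 2 genes were higher (Socs1 and Socs2) and 1 lower (Cish), where 4.59% and 8.43% of all genes were. All miR-27 Tg libraries lay above all WT libraries for 1 gene (Socs1) and below them for 2 (Cish and Il2rb), against 6.84% and 11.6% of all genes. The median log2 fold change was 0.038 over the 10 genes and -0.013 over all genes tested, and the median of its absolute size was 0.091 and 0.13.

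**Figure D1:**
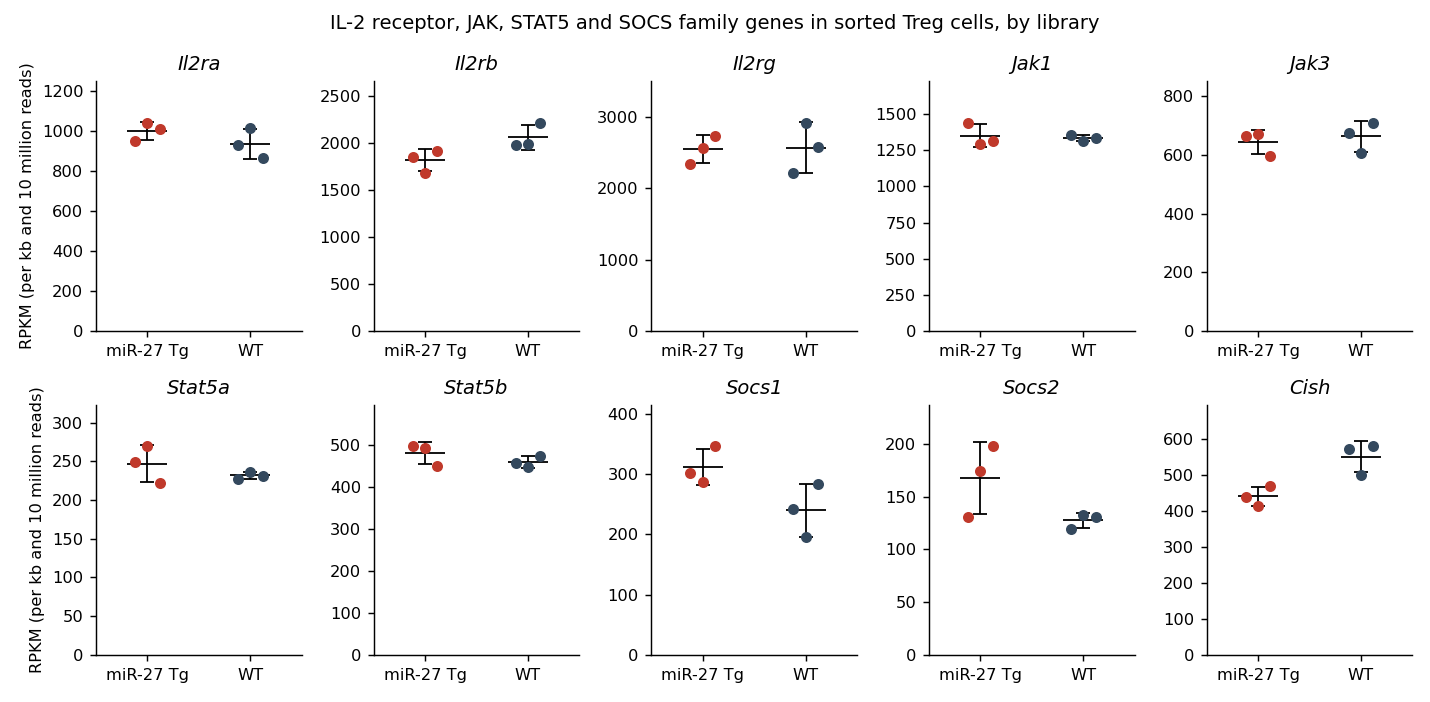
RPKM of each gene in every library (points), with mean and SD (bars), for 3 miR-27 Tg and 3 WT libraries; each axis starts at 0. Socs1 lies higher and Cish and Il2rb lie lower in every miR-27 Tg library than in any WT library, and the groups overlap for the other 7 genes.

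Among the receptor chains, Il2ra (NM_008367, mm10 chr2:11642792-11693194, plus strand) had 953, 1044 and 1012 RPKM in miR-27 Tg, against 933, 1017 and 867 RPKM in WT. It encodes CD25, the surface marker by which Treg cells are often recognised, and it is the gene with the seed match shown above. The groups overlapped, and the fold change was 1.07 with an unadjusted 95% interval of 0.921 to 1.24 (adjusted p = 0.745 by limma). That interval reflects spread between libraries only. Whether miR-27 acts at the site in these cells was not tested.

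Il2rb (NM_008368, chr15:78480549-78495066, minus strand), the signalling chain that IL-15 also uses, had 1847, 1686 and 1913 RPKM in miR-27 Tg, against 1981, 1994 and 2217 RPKM in WT. Every miR-27 Tg library was lower than every WT library, but the gap between the nearest libraries was small. The fold change was 0.880 (interval 0.752 to 1.03, adjusted p = 0.495 by limma).

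Il2rg (NM_013563, chrX:101264385-101268255, minus strand), the chain shared with the receptors for IL-4, IL-7, IL-9, IL-15 and IL-21, had 2339, 2565 and 2737 RPKM in miR-27 Tg, against 2209, 2918 and 2580.2 RPKM in WT. The WT libraries spanned the whole range of the miR-27 Tg libraries. Its fold change was 0.996 (interval 0.812 to 1.22, adjusted p = 0.993 by limma), a log2 value of -0.0060 that turned to 0.031 when libraries were scaled to the same median. The annotated gene Gm20489 shares 43.6% of the exonic bases of Il2rg, so reads of the pair were not told apart.

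Both kinases lay close together in the groups. Jak1, the kinase of CD122 (NM_146145, chr4:101151974-101265282, minus strand), had 1439, 1294 and 1313 RPKM in miR-27 Tg, against 1353, 1313 and 1337 RPKM in WT, a fold change of 1.01 (interval 0.880 to 1.16, adjusted p = 0.972 by limma). Jak3 (NM_001190830, chr8:71676383-71688313, plus strand), which works only with the gamma chain and whose loss blocks lymphocyte development, had 666, 670.5 and 596 RPKM in miR-27 Tg, against 674, 605 and 709 RPKM in WT. Its fold change was 0.972 (interval 0.834 to 1.13, adjusted p = 0.922 by limma), and the groups of both kinases overlapped.

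Stat5a and Stat5b are neighbours on chromosome 11 with 9898 bases between them and encode closely related factors. Stat5a (NM_001164062, chr11:100860484-100885169, plus strand) had 249, 269 and 222 RPKM in miR-27 Tg, against 227, 237 and 232 RPKM in WT. Stat5b (NM_001113563, chr11:100780731-100850585, minus strand) had 496, 493 and 449 RPKM in miR-27 Tg, against 456, 447 and 474 RPKM in WT. For both genes miR-27 Tg replicates 1 and 2 were the highest libraries, while miR-27 Tg replicate 3 was the lowest for Stat5a and within the WT range for Stat5b, so the groups overlapped. The fold changes were 1.06 for Stat5a (interval 0.911 to 1.23, adjusted p = 0.791) and 1.04 for Stat5b (0.916 to 1.19, adjusted p = 0.830 by limma). Of the 50-base windows of the matching GENCODE transcripts, 17.1% of Stat5a and 12.1% of Stat5b also occur in the other gene, so their values are partly uncertain against each other.

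The inhibitors bind the activated receptor or its kinases and form the negative feedback of the pathway. Cish (NM_009895, chr9:107296689-107301961, plus strand), the STAT5-induced inhibitor that docks on CD122, had 439, 415 and 468 RPKM in miR-27 Tg, against 570.4, 500.3 and 578 RPKM in WT. Every miR-27 Tg library was lower than every WT library. The log2 fold change was -0.32 (SE 0.094, unadjusted 95% interval -0.53 to -0.10), with an adjusted p = 0.193 by limma, so the difference did not pass. Over the 16 alternative settings it was between -0.38 and -0.27, with adjusted p of 0.0765 to 0.436. The annotated genes Gm17040 and Gm17041, both on the opposite strand, share 20.4% of its exonic bases, and counting was done on both strands.

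Socs1 (NM_009896, chr16:10783809-10785536, minus strand), which inhibits JAK kinases directly and also restrains interferon signalling, had 303, 288 and 346 RPKM in miR-27 Tg, against 242, 195 and 283 RPKM in WT. The groups did not overlap, although miR-27 Tg replicate 2 and WT replicate 3 nearly met. The log2 fold change was 0.39 (SE 0.14, interval 0.058 to 0.72), with an adjusted p = 0.296 by limma. Over the 16 alternatives it was between 0.25 and 0.51, with adjusted p of 0.0947 to 0.634.

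Socs2 (NM_001168657, chr10:95411490-95415283, minus strand), known above all as the inhibitor of growth hormone signalling, had 131, 174 and 198 RPKM in miR-27 Tg, against 119, 132 and 131 RPKM in WT. Here miR-27 Tg replicate 1 lay within the WT range and the other two libraries of the group above it. The log2 fold change was 0.37 (SE 0.15, interval 0.026 to 0.72), with an adjusted p = 0.340 by limma. Over the 16 alternatives it was between 0.24 and 0.54, with adjusted p of 0.115 to 0.672. The summed myeloid markers had 592, 2097 and 1257 RPKM in miR-27 Tg and 453, 445 and 848 RPKM in WT, so miR-27 Tg replicate 1 lay within the WT range and the other two above it. Socs2 was highest in miR-27 Tg replicate 3, but the markers in replicate 2. At 131 RPKM of Socs2 in both, the markers had 592 RPKM in miR-27 Tg replicate 1 and 848 in WT replicate 3. In WT replicate 2, at 132 RPKM of Socs2, they had 445 RPKM. Within its group, Socs1 was lowest in miR-27 Tg replicate 2, where the markers were highest. Among the WT libraries, Socs1 and the markers were both highest in replicate 3. The part of myeloid cells in the values of Socs1 and Socs2 was not tested. Of the 50-base windows of the matching GENCODE transcript, which has 948 bases, 44.5% also occur in other annotated genes (the pseudogenes Gm9847 and Gm8000), so its value is uncertain.

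**Figure D2:**
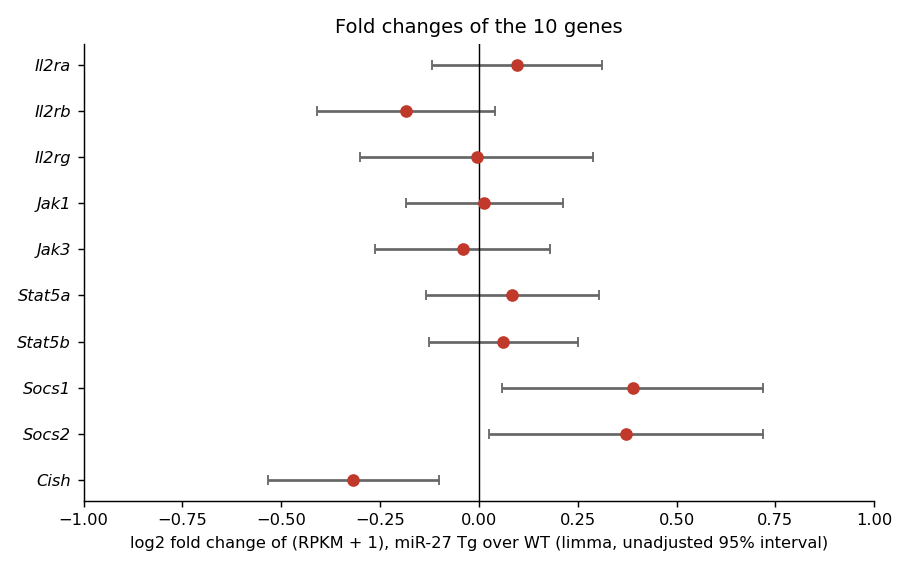
Log2 fold change of each gene, miR-27 Tg over WT, with its unadjusted 95% interval from limma. The intervals of Socs1, Socs2 and Cish leave out 0, those of the other 7 genes hold it, and 0 genes passed after adjustment over all genes.

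The unadjusted intervals reflect spread between these libraries, which may be purely technical, and do not cover sequence shared between genes. For 8 of the 10 genes both bounds lay within a 1.5-fold change in either direction, and Socs1 and Socs2 were the exceptions, each with an upper bound of 1.65-fold. The coefficient of variation between libraries of a group was 4.60% to 20.2% in miR-27 Tg and 1.51% to 18.2% in WT, against medians of 11.6% and 12.5% over all genes tested. In miR-27 Tg the gene with the widest spread was Socs2, and in WT it was Socs1. Of the 10 genes 6 have several transcripts in the table, 8 further rows in all. For none of these rows did the ratio of group means differ by more than 0.033 from that of the transcript used. The rows of a gene overlap in position and have similar read numbers, so they are not independent measurements.

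On the RPKM scale, which is per length, the receptor chains and Jak1 stood above Jak3, the STAT5 factors and the inhibitors in both groups. In miR-27 Tg the order of mean levels was Il2rg, Il2rb, Jak1, Il2ra, Jak3, Stat5b, Cish, Socs1, Stat5a and Socs2, and neighbours overlapped between libraries only for Stat5b with Cish. In WT the order was the same except that Cish, at 549.7 ± 43.0 RPKM, stood before Stat5b, at 458.9 ± 13.5, with no overlap between them. In WT, neighbours overlapped for Il2rg with Il2rb and for Socs1 with Stat5a. By mean level over the 6 libraries, Il2rg ranked 68 among the 13621 genes tested, Il2rb 103, Jak1 177 and Il2ra 302, and Socs2, the lowest, ranked 3777.

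Ratios of RPKM within a library compare the make-up of the pathway, and 8 were computed. An exact two-sided permutation test of 3 against 3 libraries cannot give a p below 0.1, so no ratio could pass. The ratio of Socs1 to Cish was 0.689, 0.694 and 0.740 in miR-27 Tg, against 0.424, 0.391 and 0.489 in WT. The libraries of a group lay close together and the groups were well apart, with a log2 difference of 0.71 (exact permutation p = 0.1, the smallest possible, and 0.267 adjusted over the 8 ratios). The ratio of Socs2 to Cish was 0.298, 0.420 and 0.422 in miR-27 Tg, against 0.209, 0.264 and 0.226 in WT, a log2 difference of 0.69 (exact p = 0.1, 0.267 adjusted). These ratios share Cish and are not independent of each other or of the fold changes above. They were chosen with earlier results of these data known.

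The third ratio without overlap was that of Il2ra to Il2rb, at 0.516, 0.619 and 0.529 in miR-27 Tg and 0.471, 0.510 and 0.391 in WT (log2 difference 0.28, exact p = 0.1, 0.267 adjusted). Here miR-27 Tg replicate 1 and WT replicate 2 nearly touched. The ratio of Stat5a to Stat5b was 0.514 ± 0.028 in miR-27 Tg and 0.506 ± 0.021 in WT, and that of Jak3 to Jak1 was 0.478 ± 0.035 in miR-27 Tg and 0.497 ± 0.035 in WT (SD, n = 3 each, exact permutation p = 0.6 for both). Ratios of Il2ra and of Il2rb to Il2rg and of Socs1 to Socs2 overlapped between groups as well (exact p = 0.4, 0.3 and 1).

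**Figure D3:**
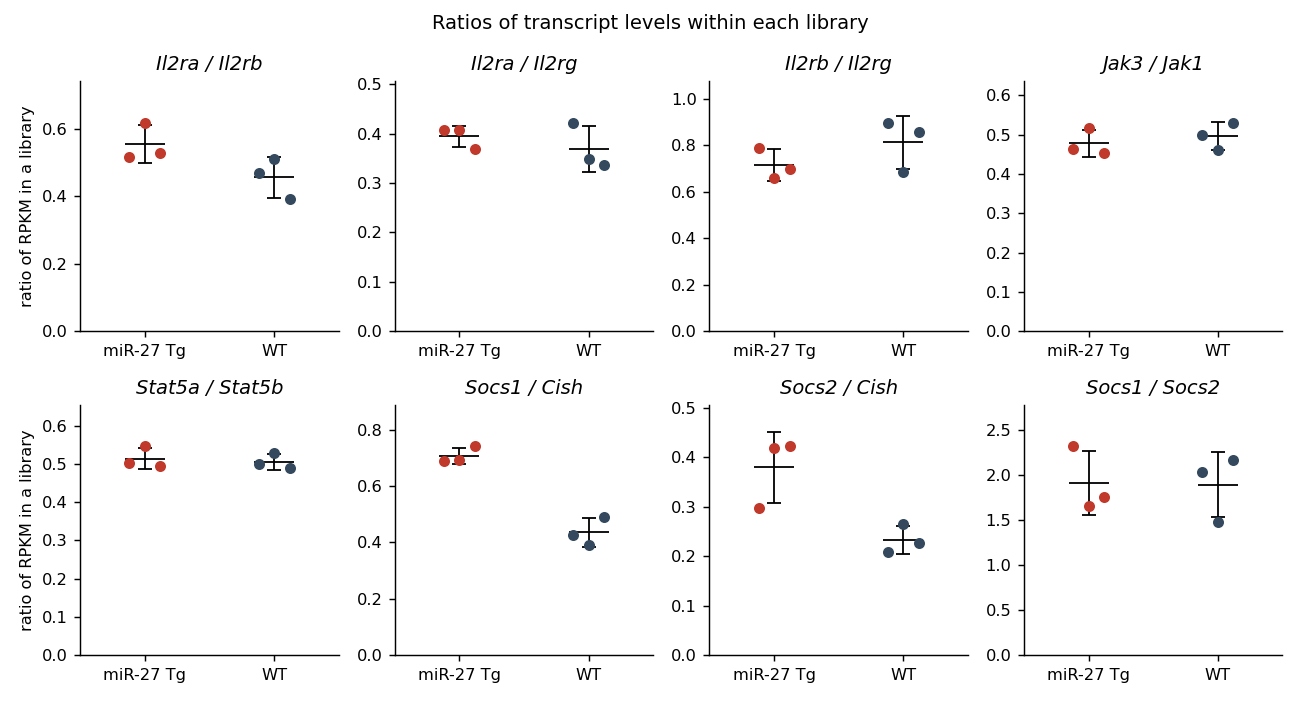
Ratio of the RPKM of 2 genes within each library (points), with mean and SD (bars), for 8 gene pairs in 3 miR-27 Tg and 3 WT libraries. The groups are apart for Socs1 to Cish, Socs2 to Cish and Il2ra to Il2rb and overlap for the other 5 pairs.

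Genes around the receptor were described from lists of the pathway. Over all 13621 genes tested, 6413 log2 fold changes were above 0 and 7208 below. An unadjusted p under 0.05 was reached by 4.59% of all genes at a higher and 8.43% at a lower level in miR-27 Tg. Of 12 genes listed as common gamma chain cytokines and other cytokine receptor chains 10 were tested, and 0 rose and 0 fell by limma. Their log2 fold changes were above 0 for 2 and below 0 for 8, with a median of -0.19, and 1 gene reached an unadjusted p under 0.05. That gene was Il21, a cytokine of helper T cells, with 2.64, 4.99 and 5.46 RPKM in miR-27 Tg and 7.79, 7.75 and 7.49 RPKM in WT (adjusted p = 0.257 by limma). Every miR-27 Tg library was lower, at a low level in both groups. Crlf2, the receptor chain for the cytokine TSLP, had 154 ± 1.26 RPKM in miR-27 Tg and 191 ± 34.7 in WT (adjusted p = 0.387). Il4ra, the IL-4 receptor chain, had 529 ± 40.9 RPKM in miR-27 Tg and 456 ± 31.2 in WT (adjusted p = 0.403). The ligand Il2 itself was low, with 2.51, 2.47 and 1.24 RPKM in miR-27 Tg and 3.54, 3.25 and 1.69 RPKM in WT, and the groups overlapped.

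Of 7 other Janus kinases and STAT factors, Stat2 rose, 0 fell and 6 did not pass, with a median log2 fold change of -0.00096. Stat2, which acts in type I interferon signalling and not downstream of IL-2, had 296, 353 and 311 RPKM in miR-27 Tg and 191, 202 and 206 RPKM in WT. The groups were well apart (log2 fold change 0.68, adjusted p = 0.0258 by limma). It did not pass with no filter on low values, with no intensity trend, or without miR-27 Tg replicate 2, miR-27 Tg replicate 3 or any 1 of the WT libraries, and its adjusted p was 0.0147 to 0.126 over the 16 alternatives. Stat4, the factor of IL-12 signalling, had 308 ± 26.3 RPKM in miR-27 Tg and 371 ± 26.1 in WT (adjusted p = 0.290). Stat3, the factor of IL-6 and IL-21 signalling, had 521 ± 42.4 RPKM in miR-27 Tg and 472 ± 41.4 in WT (adjusted p = 0.632).

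Of 5 other SOCS family genes 0 rose and 0 fell by limma, and 0 reached an unadjusted p under 0.05; the median log2 fold change was 0.021. Socs3, the inhibitor of STAT3 signalling, was the most abundant gene of the whole family, with 746, 803 and 721 RPKM in miR-27 Tg and 693, 714 and 746 RPKM in WT. Its groups overlapped. Socs5 had 45.8 ± 2.25 RPKM in miR-27 Tg and 54.1 ± 5.23 in WT (adjusted p = 0.464). Socs4 had 180.4 ± 12.9 RPKM in miR-27 Tg and 163 ± 14.2 in WT (adjusted p = 0.616). Socs6 had 29.8 ± 1.04 RPKM in miR-27 Tg and 33.2 ± 4.90 in WT (adjusted p = 0.753).

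Of 10 phosphatases, PIAS proteins and adaptor inhibitors 0 rose and 0 fell by limma, with 5 fold changes above and 5 below 0 and a median of 0.0040. At an unadjusted p under 0.05 there was 1 gene, Pias3, an inhibitor of STAT3, with 55.0 ± 4.64 RPKM in miR-27 Tg and 66.7 ± 3.76 in WT (adjusted p = 0.338). Its relative Pias4 had 119 ± 8.14 RPKM in miR-27 Tg and 103 ± 3.38 in WT (adjusted p = 0.431). Ptpn6, the phosphatase SHP-1, had 849 ± 55.1 RPKM in miR-27 Tg and 739 ± 80.0 in WT (adjusted p = 0.483).

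In the PI3K, mTOR and MAPK arm, 0 of 21 genes rose and 0 fell by limma, with 15 fold changes above and 6 below 0 and a median of 0.062. The kinase Syk, abundant in B cells and myeloid cells, had the 1 unadjusted p under 0.05, with 19.7, 41.8 and 27.9 RPKM in miR-27 Tg and 7.67, 9.55 and 19.2 RPKM in WT (log2 fold change 1.26, adjusted p = 0.175). The groups did not overlap. Syk and the summed myeloid markers were both highest in replicate 2 of miR-27 Tg and in replicate 3 of WT, and the part of such cells in this value was not tested. Rps6kb1, the S6 kinase, had 92.4 ± 10.3 RPKM in miR-27 Tg and 105 ± 8.76 in WT (adjusted p = 0.601).

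Among 14 genes that STAT5 is known to induce in T cells, 0 rose, Gzmb fell and 13 did not pass, with 7 fold changes above and 7 below 0 and a median of 0.045. Gzmb, the cytotoxic protease granzyme B, had 29.6, 25.1 and 48.0 RPKM in miR-27 Tg and 142, 87.0 and 207 RPKM in WT. Every miR-27 Tg library was lower (log2 fold change -2.02, adjusted p = 0.0395 by limma). It did not pass with no filter, with no trend, or without any 1 of the libraries other than WT replicate 2, and its adjusted p was 0.0035 to 0.284 over the alternatives. Prdm1, which encodes the effector factor Blimp-1, had 20.7 ± 3.93 RPKM in miR-27 Tg and 37.3 ± 6.94 in WT (adjusted p = 0.118).

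Of the same 14 genes 3 reached an unadjusted p under 0.05 with a higher level in miR-27 Tg, where 4.59% of all genes did. With a lower level 2 did (Gzmb and Prdm1), where 8.43% of all genes did. The 3 higher genes were Ccnd2, Pim1 and Bcl2. Ccnd2, a cyclin of the G1 phase, had 871, 737 and 799 RPKM in miR-27 Tg and 668, 653 and 665 RPKM in WT (adjusted p = 0.235 by limma). The kinase Pim1 had 1417, 1228 and 1104 RPKM in miR-27 Tg and 996, 989 and 1033 RPKM in WT (adjusted p = 0.269). For both genes, and for the survival factor Bcl2 with 614, 565 and 630.5 RPKM in miR-27 Tg and 528, 513 and 507 RPKM in WT (adjusted p = 0.292), the groups did not overlap. Of the 14 genes, 3 had every miR-27 Tg library above every WT library, against 6.84% of all genes. Another 2 (Gzmb and Prdm1) had every miR-27 Tg library below every WT library, against 11.6%. Pim1 and Bcl2 were singled out after their values were seen.

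Both genes of the list of STAT5-repressed genes gave overlapping groups. Bcl6, the factor of follicular T cells, had 58.1 ± 10.6 RPKM in miR-27 Tg and 67.2 ± 10.6 in WT (adjusted p = 0.685). Il7r, the IL-7 receptor chain, had 408 ± 163 RPKM in miR-27 Tg and 463 ± 69.1 in WT (adjusted p = 0.766).

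**Figure D4:**
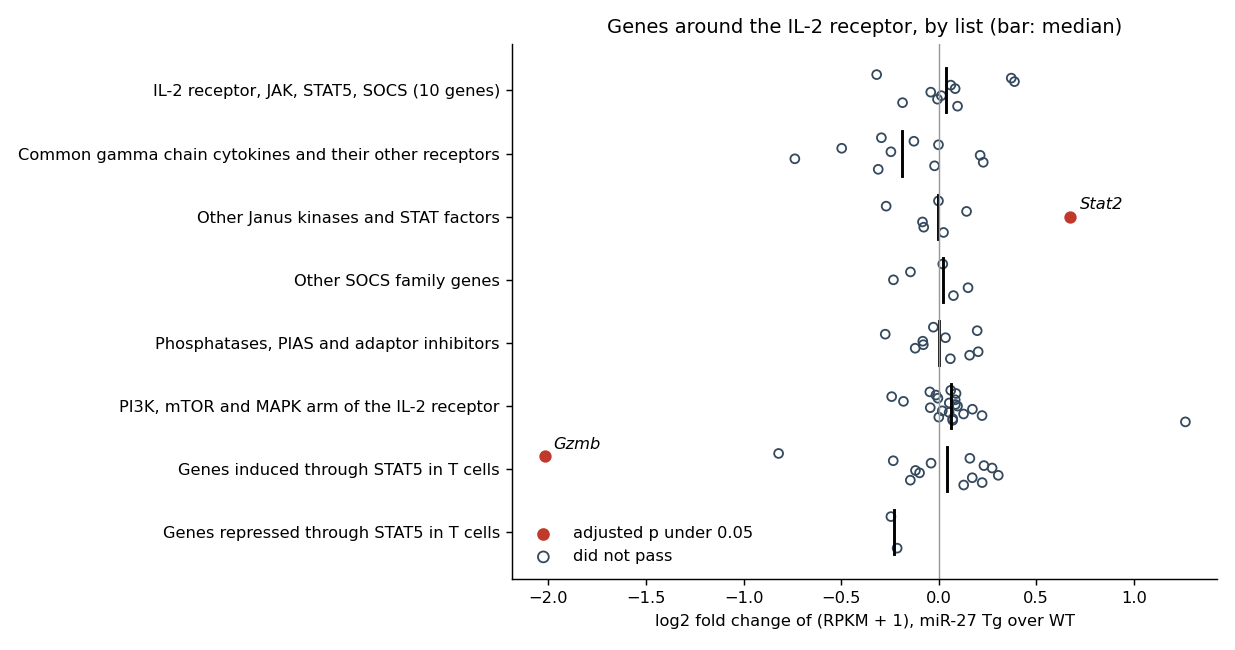
Log2 fold change, miR-27 Tg over WT, of every tested gene of 8 lists, the 10 genes among them (circles; filled where adjusted p was under 0.05) with the median of each list (bar). Stat2 and Gzmb are the filled points, and the medians lie between -0.23 and 0.062.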

How the data were processed

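RNA-seq of sorted Treg cells from 3 miR-27 Tg and 3 WT libraries was used. The authors deposited RPKM values for 34711 RefSeq transcripts. Reads in exons were counted by HOMER on both strands (mm10, each library scaled to 10000000 reads), per the file headers. STAR 2.2.0c is named per the submitters' processing notes, and the treatment of multimapping reads is not stated there. Low values were whole multiples of the value of 1 read (100% within 0.1 of a read, transcripts of 200 to 4000 bases), which gave the read numbers. Intervals and read numbers cover counting error or library spread only.

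For each symbol the transcript with the highest mean was kept. The 13621 genes with a mean of at least 1 RPKM were tested on the log2(RPKM + 1) scale in R 4.3.3 by limma 3.58.1 (limma-trend, two-sided, Benjamini-Hochberg, threshold 0.05, no replicate block), a step checked on simulated data. Log2 fold changes understate changes of low genes. Count models were not applied to the read numbers worked back from the RPKM.

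The members, lists and ratios were chosen with earlier results of these data known. Named genes were the 10 members, Mir27a, sort checks and, per list, the genes past the threshold or else those with the smallest adjusted p up to 3, and a gene this rule names is not reported here. Exon overlap and 50-base windows came from GENCODE M21 (GRCm38) transcripts matched by RefSeq accession. The 3′ UTR searched was the longest among the coding GENCODE M21 transcripts of the symbol. It need not be that of the transcript whose level was used. Alternatives were other pseudocounts (0.1 and 5), filters, transcripts, scalings, weights and trends, a replicate block, and each library left out.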

Additional observations from a re-analysis of the deposited data

How the results depend on the processing

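Under all 16 alternatives 0 of the 10 genes rose and 0 fell by limma. Il2ra, Il2rb, Stat5a, Stat5b, Socs1, Socs2 and Cish kept their direction in each of them. Leaving out 1 library, Il2rg ranged from -0.11 to 0.091 on the log2 scale, Jak1 from -0.034 to 0.043, Jak3 from -0.10 to 0.014, Il7r from -0.55 to 0.0035 and Alas2 from -0.34 to 0.16. Il2rg was 0.031 with scaling to the same median and 0.018 with array weights, where Jak1 was -0.010 and Alas2 0.058. The log2 difference of the Socs1 to Socs2 ratio was -0.036 with the longest transcripts and ranged from -0.15 to 0.12 with 1 library left out, and that of Stat5a to Stat5b from -0.021 to 0.055. Over all genes, 51 rose and 89 fell. With no filter 22 and 14 did, with array weights 81 and 144, and with 1 library left out 3 to 21 and 2 to 46, so each of the 6 libraries lowered both counts by over 1.5 times when left out, most of all miR-27 Tg replicate 3 and WT replicate 3 (3 and 2 genes each). With a replicate block 91 rose and 185 fell. Whether equal replicate numbers pair the libraries stayed unsettled, since 3 libraries a group cannot decide it. Deviations of same-numbered libraries correlated at 0.37, 0.097 and 0.037. By these deviations, miR-27 Tg replicates 1, 2 and 3 best matched WT replicates 1, 3 and 2. The cause of the shifts in the counts was not tested. With 3 libraries a group, intervals of Socs1 and Socs2 span from near no change to 1.65-fold.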
